A study of Mus musculus with 6 samples.

Results

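Contacts across the mouse immunoglobulin heavy chain locus (Igh) were examined in CD43- resting splenic B cells, taken here to carry rearranged Igh alleles. They were compared with those in 2 cell types whose Igh alleles are not rearranged, murine embryonic fibroblasts (MEF) and Rag2 deficient pro-B cells. All 6 libraries of the series entered the comparison, 2 of resting B cells against 4 of unrearranged cells (2 MEF and 2 pro-B). Contacts were measured by 5C, in which a forward and a reverse primer are ligated to each other when the HindIII fragments they sit on were joined in a 3C library, and a count gives the sequenced products of 1 primer pair. The design holds 112 forward and 113 reverse primers on 225 Igh fragments of chromosome 12 (mm9, 114339456 to 117350186), hence 12656 possible pairs, and all of these were examined, with a pair that a library does not list set to 0 reads. A control set of 600 possible pairs lies in a gene desert on chromosome 5.

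The pro-B cells came from bone marrow and were expanded in IL7 for 4 days, the MEF were taken from culture, and the resting B cells were taken from spleen with magnetic beads and used without culture. Rag2 is needed for V(D)J joining, so the pro-B cells stand for the B lineage with an unrearranged locus. MEF have no part in the lineage. Rearrangement, maturation, tissue of origin and time in culture all differ between the resting B cells and the others and cannot be told apart in this design. The labels give neither the strain of the mice nor how many resting B alleles carry a joined V gene. Each library averages over both alleles of many cells, so a contact present on fewer alleles and a weaker contact on every allele cannot be told apart either.

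The Igh locus holds a long array of V genes, then D segments, J segments, and the constant region genes. An intronic enhancer lies between the J segments and the μ constant gene. Past the last constant gene lies the 3′ regulatory region (3′RR), a group of enhancers followed by a cluster of CTCF sites. IGCR1 is a pair of CTCF sites between the V genes and the D segments that limits which V genes are used. In pro-B cells the locus is known to contract, which brings distal V genes near the D and J segments. V(D)J joining then deletes the DNA between the joined segments. On an allele with a joined V gene, the intronic enhancer and the remaining J segments sit next to that gene. On mm9 the locus runs from its 3′ end at low coordinates to the distal V genes at high coordinates. The fragments were assigned to 10 regions along this axis by approximate textbook positions: the 3′ flank (16 fragments), the 3′RR (8), the constant region (25), μ-D-J (13), V-D (5), proximal V (19), middle V (51), near distal V (43), far distal V (28) and the 5′ flank (17). No V gene is named, because no annotation of this build was used.

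The libraries held 20580457 to 24191175 valid read pairs, of which 91.3% to 93.4% were Igh pairs. From 23.1% to 39.9% of the Igh reads belonged to the 10 strongest pairs, so sums over a region can rest on a single pair. Pro-B replicate 2 stood apart from the other unrearranged libraries: across 11940 pairs its Pearson correlation with pro-B replicate 1 was 0.809, against 0.943 between the MEF libraries and 0.957 between the resting B libraries, and it listed no reads for 1641 pairs against 376 to 622 in the others. Resting B libraries correlated with the other 4 at 0.673 to 0.812. The part of this range with MEF was 0.79 to 0.812, no lower than pro-B replicate 2 with MEF (0.798 and 0.784). Pro-B replicate 1 correlated with MEF at 0.904 and 0.899, above its value with its own replicate. The unrearranged libraries were thus not all closer to each other than to resting B. These values are across pairs that share fragments and are a description. Reads that the file headers count as error pairs were taken here as a primer joined to itself. They made up 0.0283% and 0.0475% of the raw reads of the resting B libraries and 0.00137% to 0.00622% of those of the others. Reads between Igh and the gene desert numbered 122047 in pro-B replicate 1 (0.554% of its valid pairs). The other libraries held 462793 to 703564 (2.02% to 3.41%), so tests of reads with the desert rest on few reads in pro-B replicate 1.

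In resting B cells the 3′ flank and the constant region had more contact with each other and with the V genes, the constant region mainly with distal V. The 3′RR between them was mixed, and the V genes had less contact with each other. A contact was called separated when both resting B libraries lay above all 4 others, or below all 4, in CPM, the reads scaled to library size with TMM factors. Of the 11940 Igh pairs that reached 10 reads in 2 or more libraries, 2785 (23.3%) were separated above and 2742 (23.0%) below, together 46.3%. In the gene desert, 29 of 220 tested pairs (13.2%) were separated above and 43 (19.5%) below. Over all 12656 possible pairs the counts were 2806 and 2826. Separation by a wide margin, with the nearest libraries of the groups over 2-fold apart (CPM plus 1), was found for 735 pairs above and 799 below.

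The contrast of resting B cells with the mean of MEF and pro-B cells was tested with edgeR's quasi-likelihood test and Benjamini-Hochberg adjustment over all Igh pairs. At an adjusted p of 0.05, 505 pairs (4.23%) were higher in resting B cells and 567 (4.75%) lower, and 501 and 567 of these were also separated. In the desert 3 pairs (1.36%) were higher and 5 (2.27%) lower. With total cis reads as the library size, the Igh calls were 687 higher and 386 lower, and with desert reads as the library size 838 and 309, so the balance of the directions depends on the scaling. The median over all Igh pairs moved with it, from a log2 fold of 0.07 to 0.32 and 0.45, and to -0.19 after each library's distance trend was removed. Without either MEF library or either resting B library edgeR called 0 pairs in both directions, with 769 to 1229 higher and 754 to 1310 lower pairs at an unadjusted p of 0.05 or less, while without pro-B replicate 1 it called 3425 and 2162 and without pro-B replicate 2 it called 2535 and 2264. The separated counts do not rest on this test, and 1888 higher and 1822 lower pairs were separated under all 5 scalings tried.

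**Figure D1:**
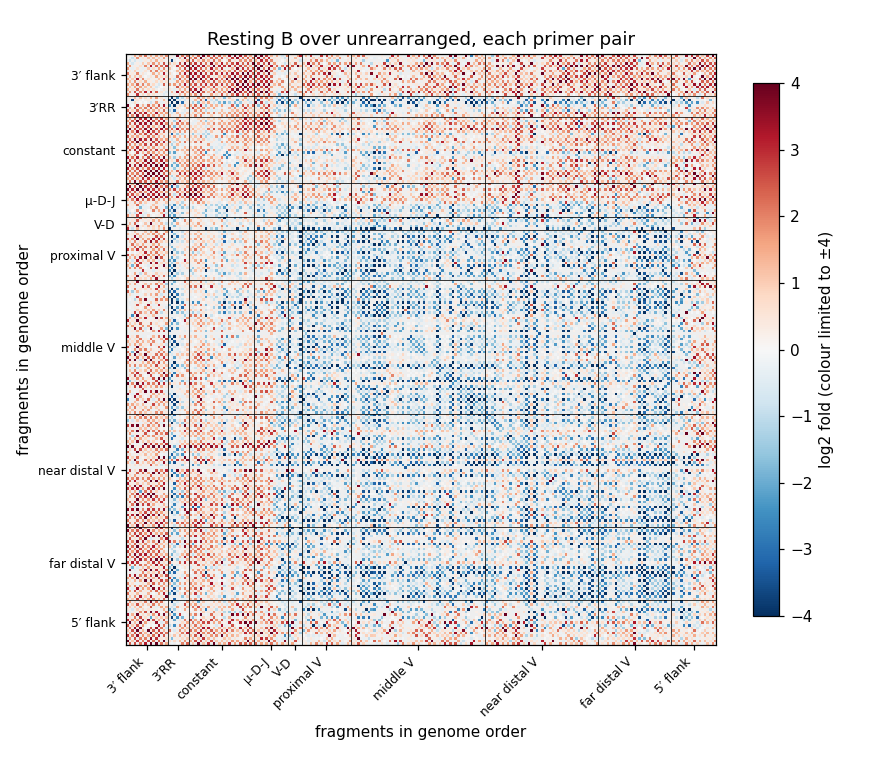
Each cell is 1 primer pair, with fragments in genome order on both axes and lines between the 10 regions. Colour gives the log2 fold of resting B over unrearranged cells (red higher, blue lower, limited to 4 in either direction), and grey has no tested pair. Rows of the 3′ flank and constant region are mostly red, the block of V with V is mostly blue, and the colour turns within μ-D-J.

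Contacts within the 3′ side (3′ flank, 3′RR and constant region) were mostly separated above, but not those of the 3′RR with itself. Of 199 pairs between the 3′ flank and the constant region, which holds the genes for the antibody classes, 177 (88.9%) were separated above and 0 below, with a median log2 fold of 2.55 against 0.07 over all Igh pairs. Their summed reads were 1767 and 1975 CPM for pro-B, 1045 and 1567 for MEF, and 7091 and 6907 for resting B. The groups did not overlap, and the sum was higher in resting B cells by 2.16 ± 0.22 (SE) on the log2 scale (edgeR quasi-likelihood test over 55 region sums, Benjamini-Hochberg adjusted p = 0.000202). Over all 55 region sums, 19 (34.5%) were higher and 15 (27.3%) lower at an adjusted p of 0.05, and 24 (43.6%) were separated above and 17 (30.9%) below. Without MEF replicate 1, MEF replicate 2 or resting B replicate 2, 12, 10 and 6 sums were higher, while the sum of the 3′ flank with the constant region passed under each alternative run. Elsewhere on the 3′ side, the sums of the constant region with itself (0.04 ± 0.39) and the 3′ flank with itself (0.37 ± 0.32) did not pass. That of the 3′RR with the constant region (0.63 ± 0.27) did not pass either. Their adjusted p was 0.928, 0.315 and 0.0679 (edgeR quasi-likelihood test, Benjamini-Hochberg), and none was separated. The sum of the 3′ flank with the 3′RR passed (1.06 ± 0.21, adjusted p = 0.00501). Within the 3′ side as a whole, 423 of 597 pairs (70.9%) were separated above and 37 (6.20%) below. The count above was 89 of 173 pairs under 50 kb apart, 256 of 330 between 50 and 200 kb, and 78 of 94 between 200 and 500 kb.

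The 3′ flank also had more contact with the regions on the far side of the constant genes. Its sum with μ-D-J was 744 and 655 CPM for pro-B, 282 and 339 for MEF, and 1699 and 1899 for resting B (log2 fold 1.95 ± 0.22, edgeR quasi-likelihood test, Benjamini-Hochberg adjusted p = 0.000249). Its sum with the far distal V genes, over 2 Mb away, was 550 and 782 CPM for pro-B, 351 and 442 for MEF, and 1951 and 1829 for resting B (1.88 ± 0.24, adjusted p = 0.000453). The constant region with far distal V gave 1609 and 2020 CPM for pro-B, 2354 and 2157 for MEF, and 5233 and 5217 for resting B (1.37 ± 0.20, adjusted p = 0.000865). In these sums the resting B libraries lay close to each other and above each of the other 4. With the distance trend removed, both sums with far distal V no longer passed (0.63, adjusted p = 0.205, and 0.28, adjusted p = 0.509). Contacts of the 3′ flank with the 5′ flank, at the opposite end of the locus, were separated above for 77 of 136 pairs and below for 1, although the sum did not pass the test (0.82 ± 0.40, adjusted p = 0.0943). With the distance trend removed 18 of these pairs were above and 9 below, and their median log2 fold was 0.46 in place of 2.06.

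Among single contacts of the constant region with the fragments around J, FOR 78 x REV 35 joined a fragment next to the μ gene (mm9 chr12:114659959-114662158) to 1 at the α end of the constant region (chr12:114493852-114496828), 166 kb apart. It had 233 and 289 reads for pro-B, 204 and 347 for MEF, and 4632 and 4357 for resting B, a log2 fold of 3.98 ± 0.29 (edgeR quasi-likelihood test, Benjamini-Hochberg adjusted p = 0.0151). FOR 80 x REV 33, 176 kb apart, had 281 and 641 reads for pro-B, 318 and 371 for MEF, and 6050 and 6510 for resting B. FOR 71 x REV 37, within the constant region and 147 kb apart, had 57 and 163, 126 and 186, and 1977 and 1754 reads in the same order. In all 3 pairs the resting B libraries had at least 1754 reads and no other library above 641. FOR 14 x REV 37, between the 3′ flank and the constant region, had 19 and 6 reads for pro-B, 48 and 78 for MEF, and 939 and 961 for resting B. FOR 6 x REV 41, FOR 38 x REV 15 and FOR 34 x REV 75 were the other named pairs within and between the 3′ flank and the constant region, with log2 folds of 3.67, 2.61 and 2.45. REV 37 (chr12:114501531-114502799) was the fragment with the largest share of partners separated above (86 of 111, none below), followed by REV 35 (84 of 111 above, 3 below). Both lie at the α end of the constant region, beside the 3′RR. REV 19 and FOR 16 of the 3′ flank followed, with 77 of 106 and 76 of 109 partners above and 0 and 1 below.

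The 3′RR itself was mixed. Of its 527 pairs with V, 108 (20.5%) were separated above and 121 (23.0%) below, near the shares over all Igh pairs, and of its 16 pairs with itself 4 were above and 5 below. With the 3′ flank 44 of 64 pairs were above and 1 below, and with the constant region 59 of 98 above and 16 below. Against MEF and pro-B in turn, the log2 fold of its sum was 1.45 and -0.19 with the constant region. It was 2.21 and -0.09 with μ-D-J, 0.80 and -0.83 with proximal V, and 0.37 and -0.42 with middle V. None of these sums was separated, although that with μ-D-J passed (edgeR quasi-likelihood test, Benjamini-Hochberg adjusted p = 0.00594). Folds with the 3′ flank (1.51 and 0.61) and far distal V (1.33 and 0.42) were above 0 against both. The 8 fragments of the 3′RR differed from each other. Of those on its constant region side, FOR 31 (chr12:114477117-114480873) was separated above for 60 of 112 partners and below for 0, REV 29 for 59 and 1 of 109, and REV 27 for 41 and 0 of 111, while FOR 28, between the last 2, was above for 27 and below for 23 of 112. On the far side, FOR 23 (chr12:114441222-114447060) was separated below for 55 of 105 partners and REV 24 for 62 of 100, with 8 and 9 above, while REV 22 was above for 25 and below for 13 of 108 and FOR 25 above for 27 and below for 17 of 102. FOR 23 and REV 24 were also lower in reads with the gene desert, by 2.06 ± 0.44 and 2.23 ± 0.54 on the log2 scale (edgeR quasi-likelihood test, Benjamini-Hochberg adjusted p = 0.0248 and 0.0269), so their low values were not limited to contacts within Igh. The part of this in their Igh result was not tested. FOR 23 x REV 187, to the proximal V genes, had 1222 and 814 reads for pro-B, 49 and 160 for MEF, and 13 and 11 for resting B, with both MEF libraries far below both pro-B libraries. With a term of 2 levels in place of 3 its adjusted p was 0.0648. FOR 694 x REV 24 and FOR 334 x REV 24, to V fragments, had 2 and 7 and 23 and 25 reads in resting B cells and at least 199 and 170 in the others. At the same end of the 3′RR, FOR 624 x REV 22 to far distal V had 50 and 154, 152 and 238, and 1031 and 1174 reads in the order pro-B, MEF, resting B, and FOR 25 x REV 70 to the constant region had 59 and 159, 160 and 209, and 816 and 773. The sum within the 3′RR was lower in resting B cells by 2.21 on the log2 scale, and 81.2% of its reads came from FOR 28 x REV 24. The sum of the 3′RR with near distal V had the largest fold of all 55 (2.57 ± 0.47, adjusted p = 0.00391), and 83.2% of its reads came from FOR 31 x REV 545. That pair, 1869 kb apart, had 22244 and 169302 reads for pro-B, 96787 and 41877 for MEF, and 594468 and 1520284 for resting B. Without it the sum turned to -0.76 (adjusted p = 0.0426). Counted as single pairs, 51 of the 159 between the 3′RR and near distal V (32.1%) were above and 27 (17.0%) below. Their median log2 fold was 0.32. With middle V 22 of 187 pairs (11.8%) were above and 54 (28.9%) below, and with proximal V 9 of 74 (12.2%) above and 18 (24.3%) below. With far distal V 26 of 107 (24.3%) were above and 22 (20.6%) below.

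**Figure D2:**
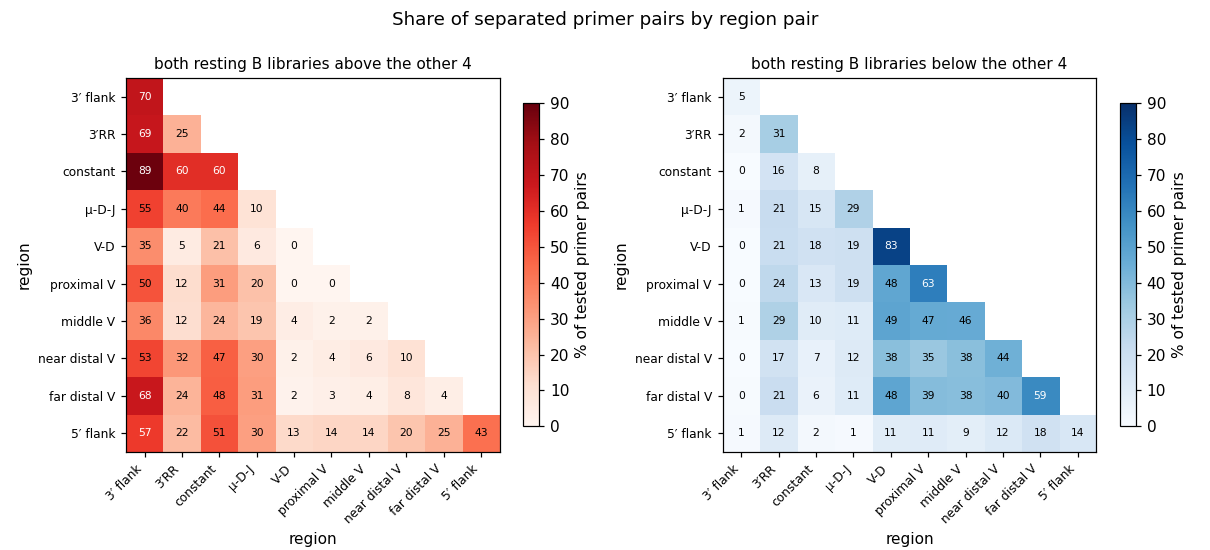
Share of tested primer pairs in each of the 55 pairs of regions for which both resting B libraries lay above (left, red) or below (right, blue) all 4 MEF and pro-B libraries in TMM-scaled CPM. The 3′ flank with the constant region reached 88.9% above, and proximal V with itself 62.8% below.

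Contacts among the V genes were lower. Of 4630 tested pairs with both fragments in V regions, 1945 (42.01%) were separated below and 231 (4.99%) above, with a median log2 fold of -0.97. Over all Igh pairs 23.0% were separated below and 23.3% above. By edgeR 471 (10.17%) were lower and 3 (0.0648%) higher, against 4.75% and 4.23% over all Igh pairs. By distance, 172 of 277 V with V pairs under 50 kb were separated below (62.09%, against 37.36% of all Igh pairs in that band). Between 50 and 200 kb they were 309 of 650 (47.54% against 29.74%). Between 200 and 500 kb they were 447 of 1059 (42.21% against 29.06%). Between 500 and 1000 kb they were 545 of 1410 (38.65% against 28.36%), and between 1000 and 2000 kb 438 of 1163 (37.66% against 17.94%). The shares of all Igh pairs include the V with V pairs. All 4 V regions were lower with themselves in the test of region sums: middle V by 1.54 ± 0.43, near distal V by 1.48 ± 0.45 and proximal V by 1.32 ± 0.38 on the log2 scale, with far distal V between the first 2 (edgeR quasi-likelihood test, Benjamini-Hochberg adjusted p between 0.0172 and 0.0187). Within the middle V genes the sums were 187343 and 113644 CPM for pro-B, 144006 and 92581 for MEF, and 46511 and 45404 for resting B. With total cis reads as the library size, only 6 region sums were lower at the threshold, and with desert reads 5. Without MEF replicate 1 or 2, 5 and 7 region sums were lower, and without resting B replicate 1 or 2 edgeR called 0 lower, with 6 and 5 at an unadjusted p of 0.05 or less. The V with V median stayed below 0 in each of the scalings, from -1.03 with the distance trend removed to -0.57 with desert reads.

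Several V with V contacts over 100 kb apart were far lower in resting B cells. FOR 694 x REV 545 joined the far distal fragment chr12:116846437-116851009 to the near distal fragment chr12:116342486-116353413, 501 kb apart. It had 209896 and 101000 reads for pro-B, 59461 and 72860 for MEF, and 3242 and 3512 for resting B, a log2 fold of -5.07 ± 0.63 (edgeR quasi-likelihood test, Benjamini-Hochberg adjusted p = 0.0162). FOR 702 x REV 552, also 501 kb apart and in the same 2 regions, had 38314 and 26864 reads for pro-B, 12820 and 9418 for MEF, and 293 and 140 for resting B (-6.67 ± 0.70, adjusted p = 0.0151). In both pairs each pro-B library stood above each MEF library, and both resting B libraries far below. FOR 436 x REV 464, within near distal V and 114 kb apart, had 17185 and 7025, 3458 and 4583, and 183 and 41 reads in the order pro-B, MEF, resting B. FOR 233 x REV 260, within middle V and 115 kb apart, had 3230 and 2359, 1216 and 2777, and 100 and 84 reads. FOR 769 x REV 464, FOR 126 x REV 450, FOR 436 x REV 545, FOR 295 x REV 235, FOR 295 x REV 260, FOR 399 x REV 335, FOR 556 x REV 788 and FOR 324 x REV 428 were the other named V with V pairs, with log2 folds from -6.10 to -3.14.

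The 5 fragments with the largest share of partners separated below all lay in the middle and near distal V genes: REV 345 (66 of 96), REV 428 (73 of 109), FOR 241 (72 of 111), REV 450 (64 of 100) and REV 260 (71 of 111). REV 428 and REV 450 were also lower with the gene desert, by 1.86 ± 0.45 and 1.72 ± 0.39 on the log2 scale (edgeR quasi-likelihood test, Benjamini-Hochberg adjusted p = 0.0269 and 0.0248), while REV 345, FOR 241 and REV 260 did not pass there (-1.21 ± 0.67, -0.53 ± 0.38 and -1.12 ± 0.40). Over all fragments, reads with the desert were higher for 3 of 224 (1.34%) and lower for 8 (3.57%), with few such reads in pro-B replicate 1. These calls depend on single libraries: edgeR called 0 in both directions without either MEF library (13 and 19 higher and 16 and 27 lower at an unadjusted p of 0.05 or less) and no more than 1 in each direction without either resting B library, but 19 higher and 26 or 32 lower without pro-B replicate 1 or 2. The region medians of this log2 fold were -0.08 to -0.29 in the V regions, 0.40 in the 3′ flank and 0.23 in the constant region, the same signs as the medians within Igh, at smaller sizes. In the other regions they were 0.43 in the 5′ flank, 0.38 in μ-D-J, -0.28 in V-D and -0.37 in the 3′RR. The part of this fold in the results was not tested. Without the 11 fragments that passed there, 2429 of 10812 tested Igh pairs were separated above and 2411 below, against 2785 and 2742 of 11940 with them. The pairs of the 3′RR with V were then 96 above and 39 below of 387, their median log2 fold was 0.28 in place of -0.09, and the median of the 3′RR with itself was 0.70 in place of -0.65.

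A V fragment was typically higher with the 3′ flank and constant region and lower with other V fragments. Of the 141 V fragments, 139 had tested partners in the 3′ flank and constant region, and 131 of these had a median log2 fold above 0 there. With V partners, 124 had a median below 0. For 114 fragments both held, for 17 both medians were above 0, for 8 both were below 0, and 0 fragments showed the opposite pattern. The medians over fragments were 1.06 with the 3′ flank and constant region and -1.03 with V partners. The direction at a V fragment thus differed with its partner. Over all 3281 pairs of the 3′ side with V, 1259 (38.4%) were separated above and 271 (8.26%) below. These were 538 above and 4 below of 1077 for the 3′ flank, 613 and 146 of 1677 for the constant region, and 108 and 121 of 527 for the 3′RR. Of 603 pairs of the constant region with middle V, 143 (23.7%) were above, near the 23.3% over all Igh pairs, and 62 (10.3%) below. Sums of the constant region with middle V (0.32 ± 0.21) and proximal V (0.47 ± 0.21) did not pass (edgeR quasi-likelihood test, Benjamini-Hochberg adjusted p = 0.21 and 0.0742).

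**Figure D3:**
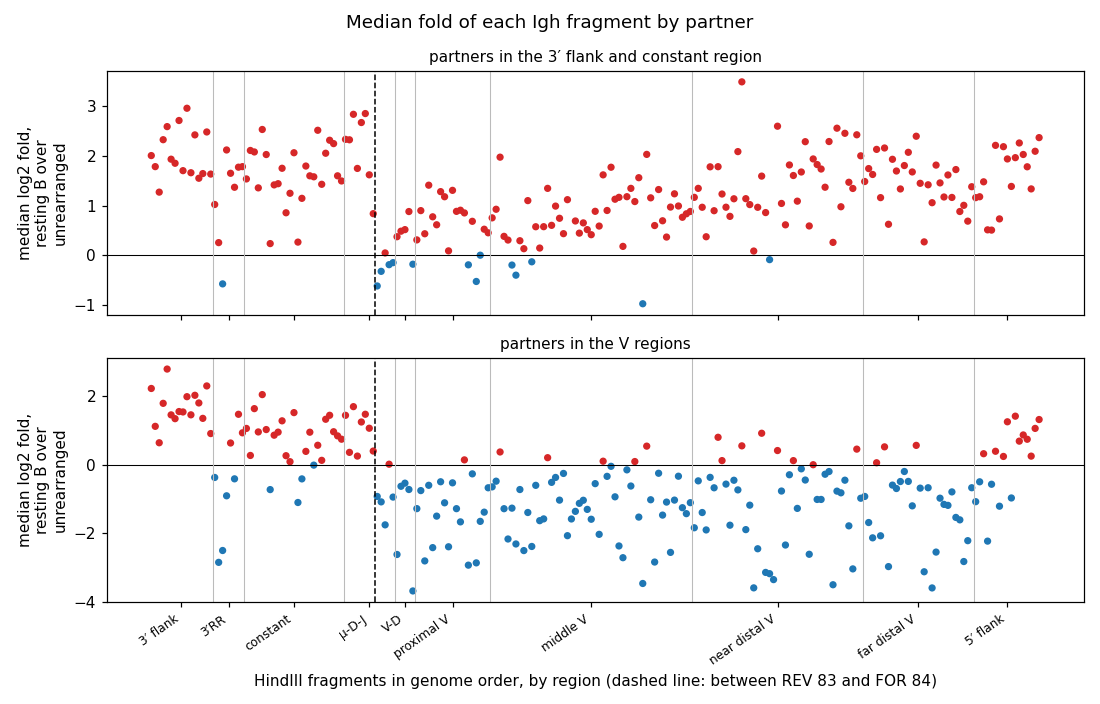
Median log2 fold (resting B over unrearranged) of each fragment in genome order, with partners in the 3′ flank and constant region (top) and with partners in the V regions (bottom). Red points lie above 0 and blue points below. V fragments lie mostly above 0 in the top panel and below 0 in the bottom panel, and at the dashed line between REV 83 and FOR 84 the values with V partners turn from above to below 0.

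Within μ-D-J the direction turned between neighbouring fragments, a boundary noticed after the values were seen. The 8 fragments from FOR 76 to REV 83 (chr12:114656273-114670119), which by approximate position hold the μ gene, the intronic enhancer and J segments, all had a median log2 fold above 0 over their partners (0.51 to 1.80). The next 10 fragments, from FOR 84 (starting at 114670120) through the D segments and IGCR1 to FOR 117, all had a median below 0 (-2.33 to -0.11). With V partners, the fragments on the J side were separated above for 204 of 521 pairs (39.2%) and below for 15 (2.88%). Those on the D side were above for 19 of 664 (2.86%) and below for 239 (36.0%). With the 3′ flank and constant region the counts were 124 above (75.6%) and 3 below (1.83%) of 164 on the J side. On the D side they were 32 above (15.6%) and 33 below (16.1%) of 205. Over all Igh pairs the shares were 23.3% above and 23.0% below. The J side stayed above 0 for all 8 fragments under each of the 5 scalings. On the D side 8 of 10 stayed below 0 with total cis reads as the library size and 6 of 10 with desert reads, where REV 90, FOR 103, REV 106 and FOR 115 turned above 0.

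**Figure D4:**
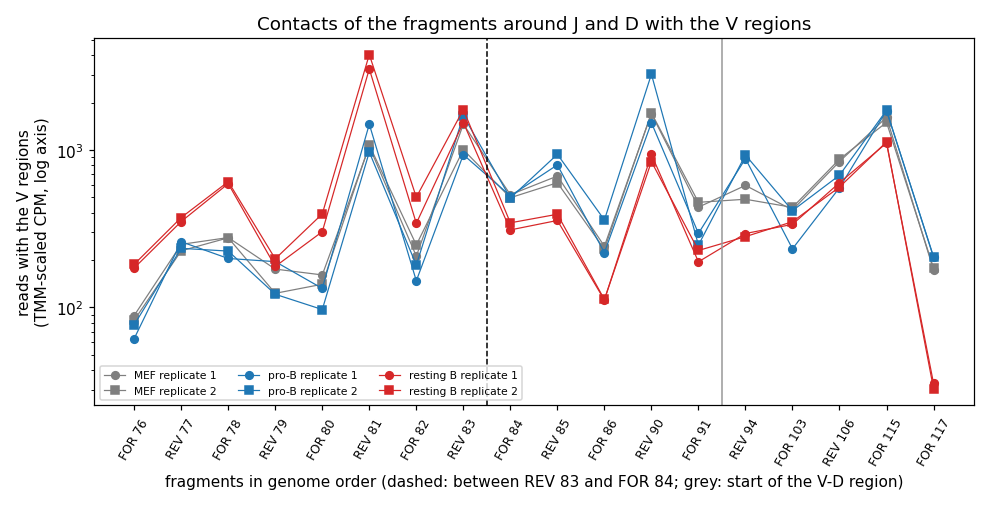
Summed reads of each of the 18 fragments of μ-D-J and V-D with all V fragments, in TMM-scaled CPM on a log axis, by library. Left of the dashed line the resting B libraries (red) are mostly above the others, as for REV 81 with 3273 and 4038 CPM against 969 to 1458, and right of it mostly below, as for FOR 117 with 33 and 30 CPM against 173 to 210.

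The fragment of the intronic enhancer, REV 81 (chr12:114664824-114667095), was separated above for 77 of 111 partners (69.4%) and below for 0, with a median log2 fold of 1.60. Over all Igh pairs 23.3% were separated above. It was above for all 8 tested partners in the 3′ flank, all 4 in the 3′RR, 11 of 12 in the constant region, 14 of 14 in far distal V, 15 of 21 in near distal V and 11 of 25 in middle V. Its reads with V genes were 1458 and 969 CPM for pro-B, 1052 and 1074 for MEF, and 3273 and 4038 for resting B. Its cis reads over 50 kb were higher by 1.90 ± 0.26 on the log2 scale (edgeR quasi-likelihood test over 225 fragments, Benjamini-Hochberg adjusted p = 0.00529). In that test 52 fragments (23.1%) were higher and 68 (30.2%) lower, and without either resting B library 5 were higher and 4 or 3 lower. The call of REV 81 ended without resting B replicate 1 or 2 (2.09, adjusted p = 0.0549, and 1.68, adjusted p = 0.0601). With the gene desert REV 81 did not pass (0.16 ± 0.41, adjusted p = 0.859). FOR 415 x REV 81, to a near distal V fragment (chr12:115816276-115822016) 1153 kb away, had 339 and 737 reads for pro-B, 188 and 375 for MEF, and 7619 and 7178 for resting B (4.20 ± 0.33, adjusted p = 0.0151). FOR 34 x REV 81 and FOR 36 x REV 81, to the α end of the constant region, had 6268 and 6739 and 3021 and 2099 reads in resting B cells and no more than 935 and 395 in any other library. FOR 25 x REV 81, to the 3′RR, had 107 and 103 reads for pro-B, 209 and 88 for MEF, and 1156 and 1206 for resting B.

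The fragments around the enhancer, from FOR 76 to REV 83, all had folds above 0. Cis reads over 50 kb of FOR 80 were higher by 2.05 ± 0.16 and those of FOR 78 by 1.57 ± 0.13 (both adjusted p = 0.00197 in the edgeR quasi-likelihood test with Benjamini-Hochberg adjustment). FOR 76, REV 77 and FOR 82 passed with 1.12, 1.02 and 0.94, while REV 79 (0.78, adjusted p = 0.0501) and REV 83 (0.46, adjusted p = 0.172) did not. On the D side, FOR 84 was lower by 0.74 ± 0.12 (adjusted p = 0.00794) and REV 85 by 1.38 ± 0.21 (adjusted p = 0.00687). REV 90, FOR 91, REV 94, FOR 103 and FOR 117 were also lower, while FOR 86 (-0.47, adjusted p = 0.106), REV 106 (-0.17, adjusted p = 0.346) and FOR 115 (0.51, adjusted p = 0.0685) did not pass. Without either resting B library, FOR 78 and FOR 80 were the only fragments of the 18 that passed. Reads of FOR 84 with V genes were 511 and 495 CPM for pro-B, 520 and 497 for MEF, and 310 and 344 for resting B, and those of REV 85 were 804 and 938, 683 and 619, and 357 and 390. FOR 117 (chr12:114791568-114794187), beside the proximal V genes, had 210 and 208 CPM with V genes for pro-B, 173 and 178 for MEF, and 33 and 30 for resting B, and its cis reads over 50 kb were lower by 1.24 ± 0.15 (adjusted p = 0.00408). None of the 18 fragments passed the test of reads with the desert, where FOR 84 had 0.55 ± 0.35, REV 85 had -0.00 ± 0.32 and FOR 117 had -0.92 ± 0.70. With total cis reads as the library size, REV 85 was the only fragment of the D side that passed in cis (-1.09, edgeR quasi-likelihood test, adjusted p = 0.0187). There FOR 84 had -0.49 (adjusted p = 0.397) and FOR 117 -0.99 (adjusted p = 0.137). With each primer pair weighted equally, REV 90, FOR 91 and FOR 103 did not pass, while FOR 86 did (-0.52, limma, Benjamini-Hochberg adjusted p = 0.00357). With desert reads as the library size, none of the 10 fragments of the D side passed in cis, and FOR 76, REV 77 and FOR 82 of the J side also did not; there FOR 84 had -0.38 (adjusted p = 0.715), REV 85 -0.98 (adjusted p = 0.146) and FOR 117 -0.88 (adjusted p = 0.407).

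The fragment nearest IGCR1, REV 94 (chr12:114722112-114723013), was separated below for 57 of 106 partners (53.8%) and above for 6 (5.66%), with a median of -1.85. Over all Igh pairs 23.0% were separated below and 23.3% above. Below were 16 of 23 middle V partners, 10 of 14 far distal V, 11 of 20 near distal V and 7 of 9 proximal V. With the 3′ flank 3 of 8 partners were above and 0 below. FOR 556 x REV 94, to a near distal V fragment 1664 kb away, had 338 and 110 reads for pro-B, 156 and 196 for MEF, and 2 and 1 for resting B. FOR 671 x REV 94, to far distal V and 2048 kb away, had 660 and 648, 455 and 642, and 115 and 109 reads. FOR 49 x REV 94, to the constant region, had 1028 and 580, 389 and 830, and 58 and 57 reads. Each of these pairs passed the edgeR quasi-likelihood test (Benjamini-Hochberg adjusted p = 0.0226, 0.0261 and 0.0222), although FOR 671 x REV 94 did not with desert reads as the library size (adjusted p = 0.0834). Of the pairs above, FOR 9 x REV 94, FOR 216 x REV 94 and FOR 11 x REV 94 did not pass (adjusted p = 0.267, 0.374 and 0.423), and FOR 11 x REV 94 was not separated under every scaling.

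FOR 115 (chr12:114778143-114787052), in the same intergenic region, differed in direction with its partners. With V genes it had 1106 and 1125 CPM for resting B and 1498 to 1786 CPM for the others. Its reads with the 3′ flank and constant region were 813 and 1650 CPM for pro-B, 2029 and 2321 for MEF, and 3641 and 3882 for resting B. Of the reads between V-D and the constant region, 62.5% came from FOR 115 x REV 70, with 2146 and 29619 reads for pro-B, 25415 and 48470 for MEF, and 67298 and 66759 for resting B. That pair was separated above and did not pass the edgeR quasi-likelihood test (1.48 ± 0.74, Benjamini-Hochberg adjusted p = 0.222). FOR 103 x REV 831, from V-D to the 5′ flank 2558 kb away, had 14 and 18 reads for pro-B, 250 and 136 for MEF, and 929 and 1023 for resting B. Its adjusted p was 0.0196, and 0.12 with a term of 2 levels.

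The 5′ flank, beyond the last V gene, had contacts with near distal V among the widest separations. FOR 837 x REV 435 (chr12:117317889-117319542 with chr12:115877939-115880010, 1440 kb apart) had 26 and 46 reads for pro-B, 37 and 26 for MEF, and 1938 and 1882 for resting B, a log2 fold of 5.69 ± 0.46 (edgeR quasi-likelihood test, Benjamini-Hochberg adjusted p = 0.0151). FOR 837 was also higher with the desert by 1.39 ± 0.37 (adjusted p = 0.0388), a smaller fold than in this pair. FOR 850 x REV 499, 1178 kb apart, had 97 and 186, 122 and 152, and 1805 and 2289 reads in the order pro-B, MEF, resting B. Over all 1100 pairs of V with the 5′ flank, however, 200 (18.2%) were separated above and 133 (12.1%) below, both under the shares over all Igh pairs.

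**Figure D5:**
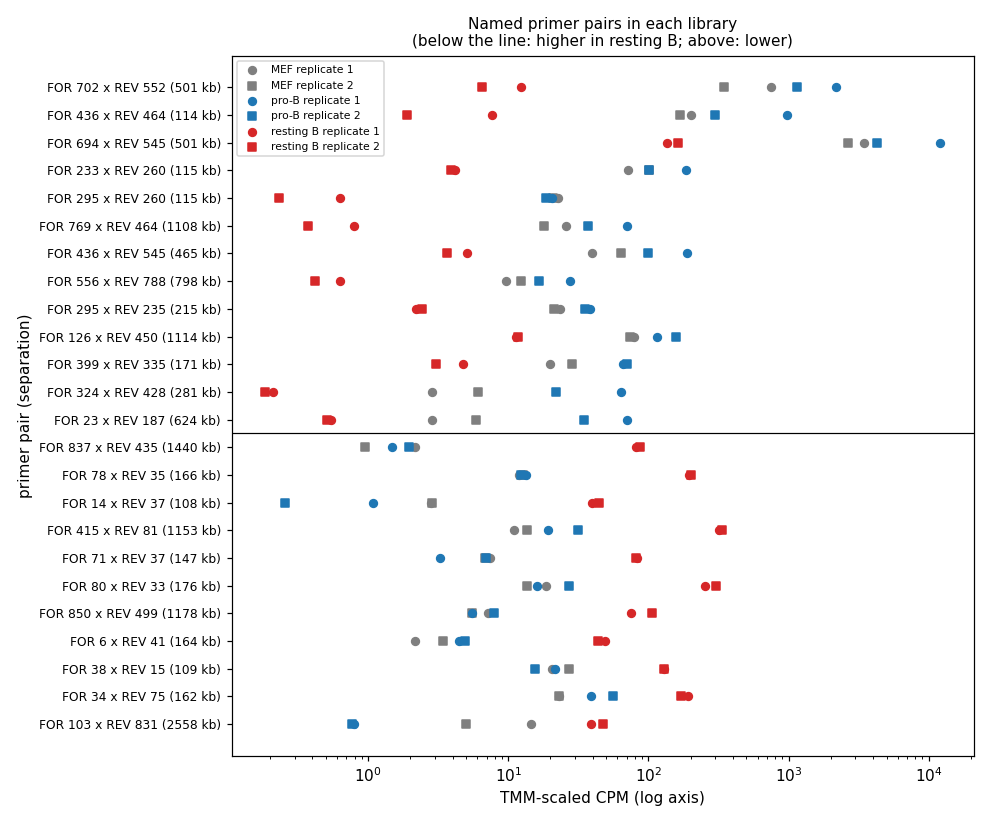
TMM-scaled CPM (log axis) of the 24 primer pairs with the smallest p or the widest gap, over 100 kb apart, in each of the 6 libraries. Below the line both resting B libraries (red) lie above the other 4, and above the line below them, by up to 4.70 on the log2 scale of CPM plus 1.

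Separation differed with the length of contacts, but the distance bands also hold different regions. Of 1652 pairs over 2000 kb apart, 635 were separated above and 143 below (median 1.05). Of 2609 pairs between 500 and 1000 kb, 317 were above and 740 below (median -0.36). V with V made up 71 pairs of the first band (1 above, 34 below, median -1.53). In the second band it made up 1410 pairs (82 above, 545 below, median -0.84). The 3′ side with V had 332 above and 36 below of 648 in the first band, and 143 and 81 of 686 in the second. The part of length apart from region was not tested. Pairs over 1000 kb apart held 9.40% and 14.4% of the Igh reads for resting B, 3.67% and 7.72% for pro-B and 4.86% and 5.30% for MEF. The groups did not overlap, and the exact two-sided permutation p was 0.0667, the smallest that 15 assignments allow. Pairs under 50 kb held 73.8% and 69.7% in resting B cells against 73.3% to 82.4% in the others (exact permutation p = 0.267). FOR 31 x REV 545 alone held 3.12% and 8.02% of the Igh reads in resting B cells and 0.108% to 0.814% in the others. Without that pair the share over 1000 kb was 6.49% and 6.89% for resting B, 3.56% and 6.96% for pro-B and 4.45% and 5.11% for MEF, so the groups overlapped (exact permutation p = 0.333). With each library's distance trend removed, 2123 pairs were separated above and 2987 below, and the medians were 0.69 for the 3′ flank and constant region with V and -1.03 for V with V.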

How the data were processed

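5C read counts of 6 libraries (2 each of MEF, pro-B and resting B cells) were analysed. The deposited values are raw counts of valid reads for each primer pair, per the file headers, with a read length of 42 and no recorded correction for distance, primer strength or depth. A further column that holds the number 1 throughout was not used. The submitters' processing notes name Novoalign and mm9, with no version of the aligner given. No molecular identifiers are recorded, so counts include amplification duplicates. The labels state that replicates are biological. Groups come from the sample titles. A pair not listed was set to 0, and a count of 0 allows up to 3 reads.

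Pairs that reached 10 reads in 2 or more libraries entered edgeR (4.0.16, R 4.3.3). TMM factors came from all such cis pairs, and the quasi-likelihood fit had a level for each of the 3 cell types, with resting B contrasted to the mean of MEF and pro-B. Benjamini-Hochberg adjustment ran separately for Igh and desert, with a threshold of 0.05. Region sums, reads of each fragment with the desert, and cis reads of each fragment over 50 kb were tested in the same way. The SE was taken from the fold and the F statistic. The test was tried on simulated counts. Alternatives were other scalings and filters, a lowess distance trend (span 0.3), DESeq2 (1.42.0), sums with each primer pair weighted equally (limma 3.58.1), a replicate block and leaving out each library.

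Named pairs were up to 10 per direction in order of p, and up to 5 with the widest gap, among separated pairs over 100 kb apart. For the first, pairs had to pass the threshold and use each fragment only in 1 pair per direction. For the second, every library of the higher group needed at least 50 reads. Region pairs with the 5 largest folds, the 5 fragments with the largest share of separated partners, and up to 3 partners of each landmark per direction were also named. Regions, landmarks, lists and members were chosen with earlier results of these data known. The test of cis reads by fragment, the exclusion of fragments and the share without FOR 31 x REV 545 were added after the values were seen, as was the naming of the other fragments around J and D. Sequences of primers and fragments were not used here.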

Additional observations from a re-analysis of the deposited data

How the results depend on the processing

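Separated counts of Igh pairs stayed within 1.5 times of 2785 and 2742 under every alternative run. With each library left out they were 2982 to 3577 above and 2887 to 3662 below. Fewer libraries make the separation rule easier to meet, so leaving out a library cannot show that these counts are stable. The edgeR counts did not stay within 1.5 times. They were 838 higher and 309 lower with desert reads as the library size, 322 and 366 for pairs over 50 kb only, 189 and 313 with a term of 2 levels, and 1337 and 1539 with DESeq2, against 505 and 567. The replicate numbers do not pair the libraries (correlations of deviations -0.03 to 0.09), and the replicate block gave 183 and 214. Leaving out a library gave 0 to 3425 higher and 0 to 2264 lower Igh pairs, 0 to 54 and 0 to 46 desert pairs, 6 to 27 and 0 to 18 region sums, 0 to 19 and 0 to 32 fragments by desert reads, and 5 to 70 and 3 to 94 fragments by cis reads. A group left with 1 library was assumed to vary like the others. Desert pairs were 15 and 1 with desert scaling. Region sums were 23 higher and 6 lower with total reads, 10 and 5 with desert reads, 10 and 8 without the distance trend, and 9 and 10 with 2 levels. Fragments by desert reads were 3 and 1 with total reads, and by cis reads 51 and 32 with total reads, 28 and 13 with desert reads and 24 and 68 without the distance trend. Reversed were the 3′RR with near distal V (-0.76 without its strongest pair), and, without the distance trend, the 3′RR with the 5′ flank (-0.59) and far distal V (-0.25) and μ-D-J with the 5′ flank (-0.13) and far distal V (-0.0416). Fragments REV 90 (0.0191) and FOR 103 (0.0273) reversed with each primer pair weighted equally. The causes were not tested.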
